A study of Mus musculus with 8 samples.

Results

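Pancreatic islets of mice that an antibody against interferon-γ (IFN-γ) had kept free of diabetes were followed on days 4, 5 and 8 after a transfer of diabetogenic T cells. These 3 arrays, 1 for each day, are 3 of the 8 in the series and were chosen by their labels alone. The hosts were NOD.Scid mice, which carry the diabetes-prone NOD background and lack T and B cells of their own. CD4+ T cells of BDC2.5 transgenic mice, which carry a single T cell receptor directed at a beta cell antigen, were injected on day 0. The protected mice also received the antibody on day -1 and on day 2, whereas the diabetogenic arm received the same T cells without it, and no control antibody is named in the labels. Per the submitters' design text, islets of the diabetogenic arm on day 5 were too swollen for dissection, so day 5 exists in the protected arm alone. Host age and sex are not given in the sources used here.

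IFN-γ is made by T helper cells of the inflammatory type and by NK cells. It switches on chemokines such as Cxcl9, the guanylate-binding GTPases and MHC genes. Macrophages that see type 2 cytokines in its place make arginase, chitinase-like proteins and the eosinophil attractant Ccl24, a state called alternative activation. Islets lie embedded in the exocrine pancreas, whose acinar cells make the digestive enzymes, and islet inflammation can be followed by deposition of collagen by stromal cells.

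Each array carries amplified RNA pooled from 5 mice, taken from islets by laser capture of eosin-stained frozen sections. A day is therefore a single measurement with no spread between mice, no test was made, and no difference below has a replicate check. Differences are on the scale of log2(intensity + 2), which understates those of dim genes, and a fold is the ratio on that same scale. Of 18193 genes with a probe set of their own, 5858 (32.2%) reached an intensity of 10 on at least 1 of the 3 days and were described. Atl1 and Ptgis, at 10 on their highest day, were the dimmest genes inside this limit, and Nol9 and Sympk, at 9.99, were just outside it. The limit was passed on all 3 days by 1810 genes, on day 4 alone by 772, on day 5 alone by 1315 and on day 8 alone by 407.

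The 3 arrays shared a median intensity of 3.52 to 3.61 but differed in their bright genes. The 99th percentile of intensity was lowest on day 4, at 67.0, against 90.8 on day 5 and 85.2 on day 8. Bacterial control transcripts spiked in before hybridisation had a median intensity of 1624, 551 and 1659 on days 4, 5 and 8. Their median lay between 1.48 and 2.29 on the untreated array and the 2 arrays of day 3, which therefore enter no pattern. On day 5 the dimmer controls were lower than on day 4, with ratios of 0.246 to 0.309 for the 6 bioB probe sets and 0.316 to 0.408 for the 4 of bioC. The 4 probe sets of the brightest control, cre, had ratios of 0.911 to 1.16, and all 18 controls had ratios of 0.882 to 1.25 between days 8 and 4. The ratio of the 3′ to the 5′ Actb probe set, a sign of RNA integrity, was 9.24, 24.2 and 10.5 on days 4, 5 and 8, and that of Gapdh was 10.5, 6.4 and 10.8. Day 5 was thus highest by Actb and lowest by Gapdh, and the part of these measures and of the spiked controls in its values was not tested.

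**Figure D1:**
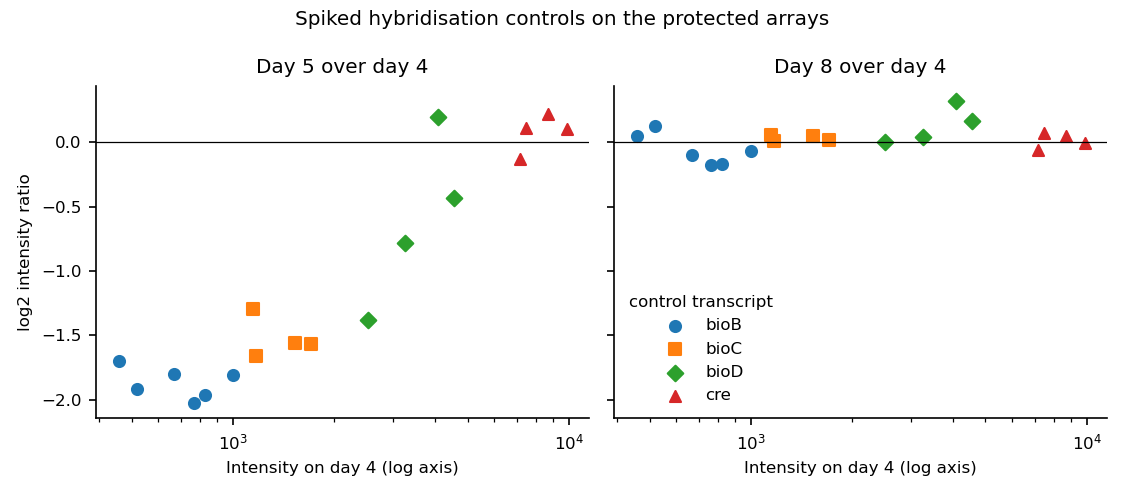
Each point is 1 of 18 probe sets of the spiked control transcripts bioB, bioC, bioD and cre, with its intensity on day 4 (log axis) against its log2 ratio of day 5 over day 4 (left) or day 8 over day 4 (right). The bioB and bioC controls lie well below 0 on day 5, at ratios of 0.246 to 0.408, and all controls lie near 0 on day 8.

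The labelled tissue was present on each day. Ins2, the main insulin transcript, had an intensity of 5532, 6359 and 3779 on days 4, 5 and 8, and Iapp, the amyloid peptide released with insulin, of 1143, 887 and 851, with -1.04 to 0.34 between days 4 and 8 for the other 3 probe sets of Iapp. Macrophage markers (Adgre1, Csf1r, Cd68 and Lyz2) summed to 1425, 921 and 946. Most of each sum was Csf1r, at 1386, 809 and 819. The other markers were each higher on both later days than on day 4. Adgre1 had 11.5, 27.4 and 16.5, Cd68 had 5.92, 25.5 and 14.4, and Lyz2 had 21.4, 58.3 and 96.5. Among T cell markers, Cd3d, Cd3g and Cd4 stayed below 10 on all 3 days, and so did Epx, Prg2, Ccr3 and Siglecf of eosinophils and Ms4a1, Cd79a and Pax5 of B cells. Eosinophil markers summed to 13.1, 13.6 and 10.03. Fewer cells of a type and less RNA per cell cannot be told apart in any of the values that follow.

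Genes were sorted by rules of size, with 2-fold (1 on the log2 scale) as the step. A rising pattern means at least 2-fold more on day 8 than on day 4 with day 5 in between, and 512 of the 5858 genes (8.74%) had it. The mirror image, a falling pattern, held for 223 genes (3.81%). A peak, at least 2-fold above both neighbours on day 5, was seen for 586 genes (10%), and a dip of the same size for 169 (2.88%). A further 2245 genes stayed within 2-fold, and 2123 took other courses. Of these 2123, 1473 were at least 2-fold higher on day 5 than on day 4 and stayed within 2-fold of day 5 on day 8, a course defined after seeing the data. Most peaks belonged to dim genes, since 469 of the 586 reached 10 on day 5 only, as 182 of the 223 falling genes did on day 4 only.

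Counts that involve day 5 depended on how the arrays were scaled. Against day 4, 2356 genes were at least 2-fold higher on day 5 and 681 at least 2-fold lower, a split of 1215 to 1155 after each array was centred on its median and of 4531 to 113 after scaling on the spiked controls. Between days 5 and 8 the split was 328 higher to 779 lower, 673 to 329 after centring and 25 to 4649 on the spiked controls. Days 4 and 8 were steadier, with 1280 genes higher and 466 lower on day 8, or 932 and 615 after centring and 1102 and 447 on the spiked controls. The median difference over the 5858 genes was 0.74 for day 5 minus day 4 and -0.25 for day 8 minus day 5. It was 0.37 for day 8 minus day 4, and the lists below are read against these medians. Over all 18193 genes, whether or not they reached 10, the medians were 0.17, -0.08 and 0.11 in the same order. In the comparisons below, all genes means the 5858. The genes named as leading a pattern are those that kept it under 5 settings of scale and pseudocount. This left 17 rising, 21 falling, 82 peaking and 3 dipping genes. The settings were not equally strict for each pattern. Scaling on the spiked controls kept all 586 peaks, but only 30 of 512 rising, 75 of 223 falling and 6 of 169 dipping genes. Counts within the lists below cover the genes that reached 10 on some day, and a gene that did so on 1 day only had to differ, so they describe these arrays and carry no weight beyond that.

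Collagen and matrix genes led the rising pattern. Bgn, which encodes the matrix proteoglycan biglycan, had an intensity of 34.4, 106 and 492 on days 4, 5 and 8, a 13.6-fold difference between day 4 and day 8, and its other 2 probe sets gave 3.57 and 3.86 on the log2 scale. Col6a2, a chain of the microfibril collagen VI, had 21.4, 47.7 and 216. Its partner chain Col6a1 had 15.4, 26.4 and 142. In both chains most of the difference lay between days 5 and 8, with log2 differences of 2.13 for Col6a2 and 2.34 for Col6a1. Fmod, a proteoglycan that binds collagen fibrils, had 1.56, 5.78 and 21.96, and its other 5 probe sets gave only 0.20 to 1.20 between days 4 and 8. Fbxw9, an F-box protein (2.76, 7.56 and 62.2), and Gprasp1, a receptor-sorting protein (7.59, 19.2 and 64.1), also led the pattern, but their other probe sets went the opposite way, at -0.48 and -0.21.

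The collagen list as a whole mostly shared this direction. Of 14 listed genes 12 were kept, and 8 of these had the rising pattern against 8.74% of all genes. Relative to day 4, 8 were at least 2-fold higher on day 5, where 40.2% of all genes were, and 9 on day 8, where 21.9% were. The median difference of the list was 1.29 on day 5 and 2.32 on day 8, and it was 2.17 to 2.32 on day 8 under every scaling tried. Col1a2, a chain of the fibrillar collagen I, had 35.2, 161 and 428, and Col3a1, the fibrillar collagen III, had 10.3, 41.2 and 116. Each day was above the one before for both, but the other probe set of Col3a1, below 10 throughout, gave -1.52 on day 5 and -0.53 on day 8. Col12a1, a collagen that decorates fibrils, had the falling pattern, at 13.5, 5.76 and 4.81, and was named after its values were seen.

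Other matrix genes followed in part. Of 11 kept matrix and stroma genes, 4 had the rising pattern, beside 8.74% of all genes, and the list's median on day 8 was 0.84, beside 0.37. Sparc, a collagen-binding matrix protein, had 4.05, 22.5 and 51.4. Mmp2, a metalloproteinase that cleaves basement membrane collagen, had 1.78, 16.3 and 36.9, and Timp2, an inhibitor that also binds pro-MMP2, had 25.6, 43.8 and 87.7. Tagln, a contractile protein of smooth muscle and myofibroblasts, had 1.55, 7.94 and 15.5. Other probe sets were less uniform, ranging from -0.08 to 1.70 between days 4 and 8 for Sparc and from -0.49 to 2.68 for Timp2, and that of Mmp2 gave 1.62. Fn1, the adhesive matrix protein fibronectin, took another course at 30.6, 54.6 and 23.9. Of the fibroblast markers that are no collagens, Dcn had 8.08, 12.6 and 9.20 and Pdgfra stayed below 10, while the summed list, Col1a1 and Col3a1 included, was 27.8, 86.6 and 189.

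**Figure D2:**
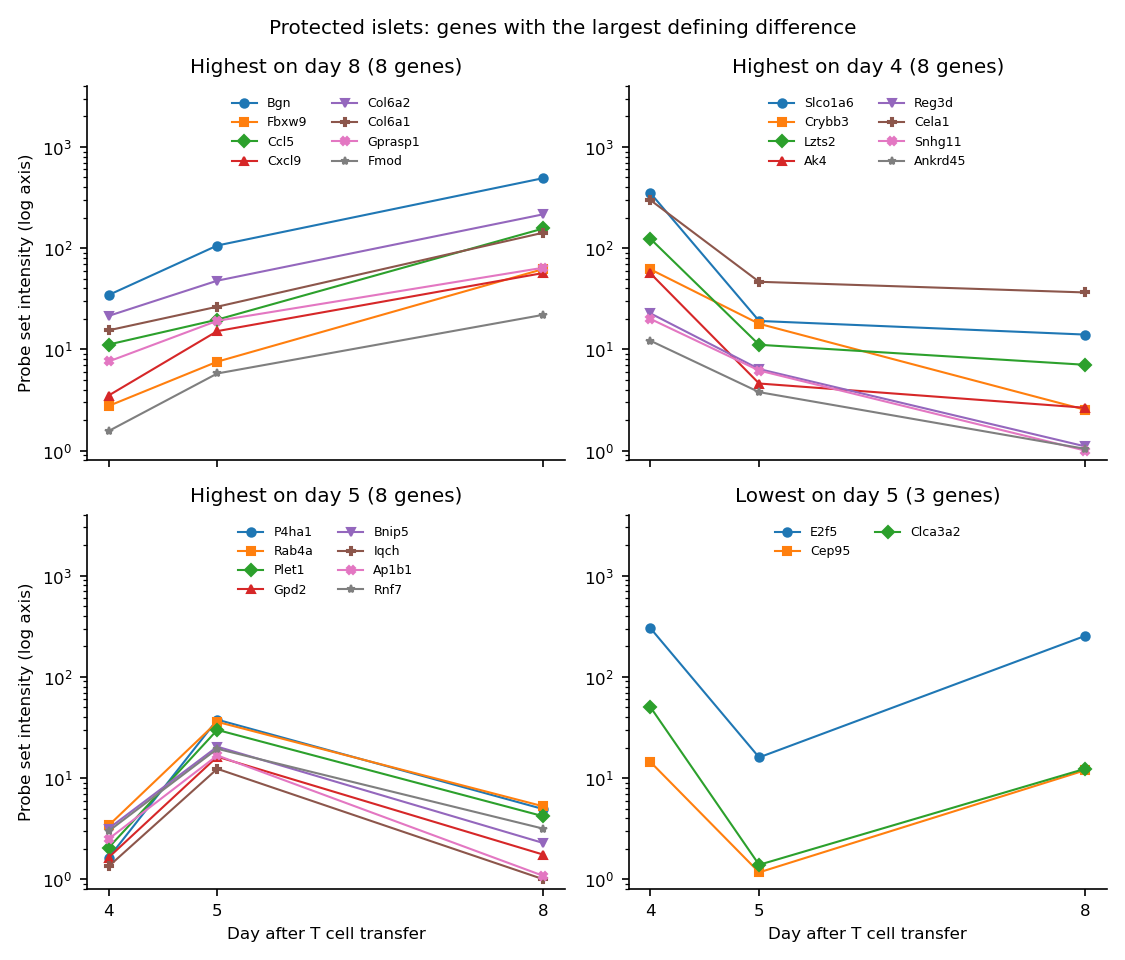
Probe set intensity (log axis) on days 4, 5 and 8 of the genes with the largest defining difference among those that kept their pattern under 5 settings of scale and pseudocount, 8 rising, 8 falling, 8 peaking and 3 dipping. Each point is 1 pooled array, and Bgn goes from 34.4 on day 4 to 492 on day 8 while Slco1a6 goes from 350 to 14.0.

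Some genes of the IFN-γ response were among the late ones. The antibody was last given on day 2, and its part in them was not tested. Of 7 kept genes of IFN-γ signalling, 1 had the rising pattern and 0 were at least 2-fold higher on day 8 than on day 5. Over all genes these shares were 8.74% and 5.60%. Ccl5, a chemokine that draws T cells and monocytes, had 11.2, 19.7 and 156.5, so that most of its difference lay after day 5. Cxcl9 binds the chemokine receptor Cxcr3 of T cells and is a classical IFN-γ target. It had 3.50, 15.2 and 56.8, a 10.7-fold difference from day 4 to day 8. Its other probe set stayed below 10 and gave 1.74 on day 5 and on day 8 alike against day 4. Cxcr3 itself had 9.40, 9.21 and 21.1. The sister ligands Cxcl10 (2.17, 2.57 and 6.02) and Cxcl11 (5.88, 5.62 and 5.58) never reached 10.

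Some interferon-inducible GTPases, which defend cells against intracellular microbes, showed a step between days 5 and 8 in the probe set that represents each gene. Of 5 kept genes, 3 were at least 2-fold higher on day 8 than on day 5, where 5.60% of all genes were, and 3 were so against day 4. Gbp2 had 21.9, 32.6 and 83.1. Its other probe set gave 1.71 on day 5 and 2.03 on day 8 against day 4, so most of its difference lay before day 5. Iigp1, a GTPase of the IRG family, had 1.97, 7.09 and 22.6, but its other probe set stayed below 10 and gave -0.47. Gbp6 had 3.33, 2.41 and 12.2, and its other probe set gave 0.60 on day 5 and 1.52 on day 8 against day 4. The list's median was 1.41 on day 8, and on day 5 it was 0.53, which turned to -0.06 after quantile normalization. Irf1, a transcription factor induced early by IFN-γ, had 16.1, 11.0 and 15.6 and did not share this course. T cell markers summed to 42.3, 40.2 and 69.0. Within this sum Thy1, which is also found on stromal cells, had 10.7, 26.9 and 40.1, whereas Cd3e had 23.7, 2.76 and 19.0. The part of T cells in the differences of the GTPases was not tested.

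The promoter of Gbp2 is shown because Gbp2 stands for these GTPases and its window holds letters that interferon-activated factors are known to bind. The window runs from 250 bases before to 50 after the RefSeq start, at chr3:142620413-142620712 on the plus strand of GRCm38.p6. Capitals mark a match to the interferon-stimulated response element, searched on both strands as GAAA, any 2 bases and GAAA again, and found here on the minus strand, at -59 from the start.
Gbp2: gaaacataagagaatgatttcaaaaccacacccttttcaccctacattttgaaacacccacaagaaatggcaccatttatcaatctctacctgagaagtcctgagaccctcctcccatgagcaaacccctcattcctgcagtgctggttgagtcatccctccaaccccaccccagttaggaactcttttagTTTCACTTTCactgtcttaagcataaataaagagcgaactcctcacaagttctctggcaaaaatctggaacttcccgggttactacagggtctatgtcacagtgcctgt
The same letters were found in 3.44% of 32851 promoter windows of this length and in those of Gbp2, Gbp7 and Igtp, the 3 kept genes of the list that have a window in the table. The window of Cxcl9 did not hold these letters.

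Many myeloid genes were higher on day 5 than on day 4, and fewer were on day 8. Of 24 kept macrophage and monocyte genes, 14 were at least 2-fold higher on day 5 than on day 4 and none was as much lower, against 40.2% and 11.6% of all genes. On day 8, 10 were at least 2-fold higher and 2 lower than on day 4, beside 21.9% and 7.95% of all genes. By any amount, 16 of the 24 were above day 4 on day 8, beside 3856 of all 5858 genes. Against day 5, 6 were at least 2-fold lower on day 8 and 1 was higher, beside 13.3% and 5.60% of all genes. Mpeg1, a pore-forming protein of macrophages, had 9.91, 34.6 and 75.6. Ccr2, the receptor that brings monocytes out of the blood, had 6.08, 35.0 and 46.3, and Ptprc, the pan-leukocyte antigen CD45, had 4.62, 28.5 and 44.7. The other probe sets of Ccr2 and Ptprc stayed below 10, with -0.52 to 0.23 for Ccr2 and 0.50 for Ptprc between days 4 and 8. Lyz1, a lysozyme, went with them at 172, 461 and 860. Csf1r, the receptor of the macrophage growth factor, did not, with 1386 on day 4 and 809 and 819 afterwards. It was named after its values were seen.

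MHC class II genes of antigen presentation had the same early step. All 6 kept MHC class II genes were at least 2-fold higher on day 5 than on day 4, and 4 were on day 8, beside 40.2% and 21.9% of all genes. Genes of MHC class I and its processing lay nearer those shares. Of 8 kept, 4 were at least 2-fold higher on day 5 and 2 on day 8, and 1 was as much lower on each day. H2-Aa, the class II alpha chain, had 1053, 2220 and 2792, and Cd74, the invariant chain that guides class II molecules, had 6.38, 22 and 16.4. Fscn1, an actin-bundling protein of mature dendritic cells, had 8.53, 41.5 and 94.4. Cd86, a ligand that costimulates T cells, had 3.76, 20.2 and 19.1, whereas the T cell inhibitor PD-L1, from Cd274, had 2.96, 20.2 and 11.0. Of 7 kept checkpoint and costimulation genes, 5 were at least 2-fold higher on day 5 than on day 4, beside 40.2% of all genes. On day 8 it was 5 as well, beside 21.9%. The cell cycle list gave 6 of 10 kept genes on both days, against the same 40.2% and 21.9%, among them Ccna2, cyclin A2, at 1.0, 19.2 and 17.2, whose other probe set stayed below 10 and gave -0.19 on day 5.

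**Figure D3:**
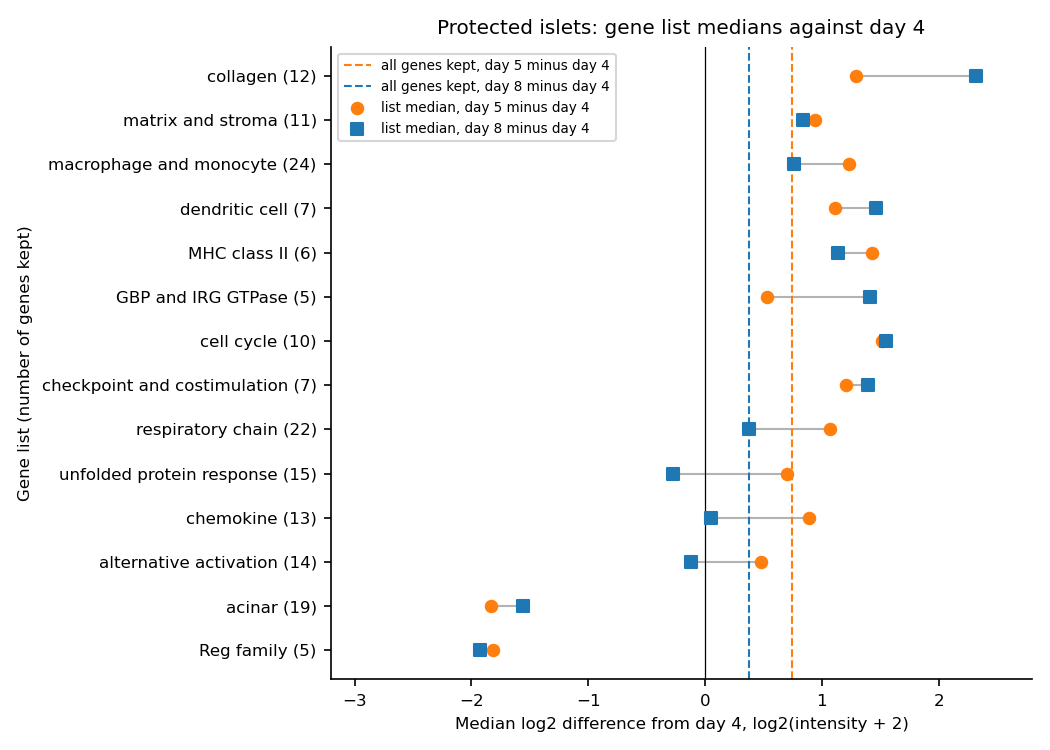
Median difference from day 4 on the log2(intensity + 2) scale for 14 gene lists, with circles for day 5, squares for day 8 and the number of genes kept in parentheses. Dashed lines mark the median of all 5858 genes, 0.74 for day 5 and 0.37 for day 8, and the collagen list stands at 2.32 on day 8 while the acinar and Reg family lists lie below -1.5 on both days.

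Transcripts of acinar digestive enzymes were much lower on days 5 and 8 than on day 4. Of 19 kept genes, 16 were at least 2-fold lower on day 5, where 11.6% of all genes were, and 15 on day 8, where 7.95% were. None was higher on either day. Cela3b, a pancreatic elastase, had 2710, 403 and 772, and Ctrl, a chymotrypsin-like protease, had 1122, 139 and 216. Prss3, a trypsin, went from 89.7 to 6.54 and 5.34. Most of these genes were somewhat higher on day 8 than on day 5, with a list median of 0.33 for that step, but Cela1, a further elastase, had the falling pattern at 298, 46.5 and 36.5.

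The size of the step to day 5 varied with the scaling and its sign did not. The list's median difference from day 4 was -1.83 on day 5 and -1.56 on day 8, and on day 5 it was -0.45 when arrays were scaled on the spiked controls. Acinar markers (Cela1, Prss2, Ctrb1 and Cpa1) summed to 1775, 363 and 564 on the 3 protected days and to 900 on the untreated array. Day 4 was thus the highest of them, and more captured acinar cells and more RNA per acinar cell cannot be told apart. Ptf1a, which encodes the transcription factor that drives these enzyme genes, stayed below 10.

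The promoters of Cela1 and Prss2, a trypsinogen with 1182, 213 and 400 on days 4, 5 and 8, are shown because both windows hold the letters of an E-box and a TC box, the paired pieces that the acinar factor PTF1 is known to bind. They were picked after the search. Capitals mark the E-box, searched as CACCTG, and the TC box, searched as TTTCCC, each on both strands, so that TTTCCC on the other strand reads GGGAAA. The Cela1 window is chr15:100687871-100688170 on the minus strand and that of Prss2 is chr6:41521526-41521825 on the plus strand, both of GRCm38.p6 from RefSeq and read along the gene.
Cela1: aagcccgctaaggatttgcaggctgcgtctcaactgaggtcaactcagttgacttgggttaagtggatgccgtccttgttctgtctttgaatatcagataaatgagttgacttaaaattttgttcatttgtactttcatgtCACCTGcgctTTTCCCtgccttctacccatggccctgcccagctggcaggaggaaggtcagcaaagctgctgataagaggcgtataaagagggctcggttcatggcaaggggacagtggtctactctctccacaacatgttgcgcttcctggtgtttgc
Prss2: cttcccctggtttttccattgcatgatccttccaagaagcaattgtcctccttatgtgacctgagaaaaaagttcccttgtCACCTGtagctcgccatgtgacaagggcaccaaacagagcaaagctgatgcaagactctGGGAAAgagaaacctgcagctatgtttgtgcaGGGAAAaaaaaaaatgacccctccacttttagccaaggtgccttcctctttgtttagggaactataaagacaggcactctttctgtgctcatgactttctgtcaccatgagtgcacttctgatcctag
In Cela1 the E-box begins at -109 and the TC box at -99 from the start. In Prss2 the E-box begins at -169 and the TC boxes at -110 and -78. The pieces thus lie farther apart in Prss2 than in Cela1, and whether they act as a pair was not tested. The E-box alone was found in 20.2% of the 32851 windows, the TC box in 25.2% and both in 4.86%. Of 16 kept acinar genes with a window, 4 held both, namely Cela1, Cela2a, Prss2 and Cel.

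The Reg family, secreted lectins that acinar and inflamed islet cells make, followed the course of the acinar genes. All 5 kept members were at least 2-fold lower than on day 4 on both later days, beside 11.6% of all genes on day 5 and 7.95% on day 8. Reg3b had 257, 45.3 and 60.1, and its other probe set gave -3.46 between days 4 and 8. Reg2 had 85.3, 12.7 and 24.4, Reg1 had 83.4, 22.3 and 20.5, and Reg3d had 22.7, 6.39 and 1.10. On day 4 Reg3b stood far above its untreated level of 13.0, but Reg1, at 94.7 in untreated islets, did not. Acinar genes were mixed in this as well. Cela1 had 253 in untreated islets and 298 on day 4, whereas Ctrl had 308 and 1122.

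Other genes with the falling pattern belonged to no list. Slco1a6, an organic anion transporter, had the largest difference of all at 350, 19.1 and 14.0, a log2 difference of -4.46. Lzts2, a leucine zipper protein, had 124, 11.1 and 7.04, and Crybb3, a crystallin of the beta family, had 61.8, 17.9 and 2.53. Ak4, a mitochondrial adenylate kinase, had 56.3, 4.60 and 2.65, but its other 4 probe sets ranged from -0.91 to 0.45 between days 4 and 8. Snhg11, a noncoding RNA host gene (19.99, 6.18 and 1.0), and Ankrd45, an ankyrin repeat protein (12.2, 3.78 and 1.04), completed the leading 8 with Reg3d and Cela1. Only 18 of all 223 falling genes had a further probe set at 10 or more. For 8 of these, at least 1 such probe set was lower on day 8 as well. Such a probe set was found for 112 of the rising genes, and for 81 of these at least 1 was higher on day 8. Of all 5858 genes 3856 were higher on day 8, but that count uses 1 probe set per gene and is not a like measure.

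Several genes of alternative activation were near their day 4 level on day 5 and much lower on day 8. Ccl24 had 476, 659 and 56.0, the widest range of the list, and it stood at 1.12 in untreated islets. Arg1, arginase, had 65.3, 75.3 and 11.0, and Chil3, a chitinase-like lectin, had 352, 449 and 140. Of 14 kept genes, 7 were at least 2-fold lower on day 8 than on day 5, where 13.3% of all genes were, and the list's median for that step was -1.05 against -0.25 for all genes. Retnla, a resistin-like protein of the same macrophages, had 32.2, 46.1 and 30.4 and stayed within 2-fold. Egr2 (4.99, 27.5 and 24.4) and Ccl22 (3.26, 31.9 and 18.8) were higher on both later days than on day 4.

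The chemokine ligands took several courses. Ccl17, which draws T helper cells of type 2, had 2417, 3667 and 1070 and was thus lowest on day 8. Of 13 kept ligands, 6 were at least 2-fold lower on day 8 than on day 5, and 1, Ccl5, was higher, beside 13.3% and 5.60% of all genes. The list's median difference between days 4 and 8 was 0.05, which became -0.11 after centring. Rnase2a, an eosinophil-associated ribonuclease, went from 382 to 260 and 133. Its values stand beside eosinophil markers that were below 10 on all 3 days.

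**Figure D4:**
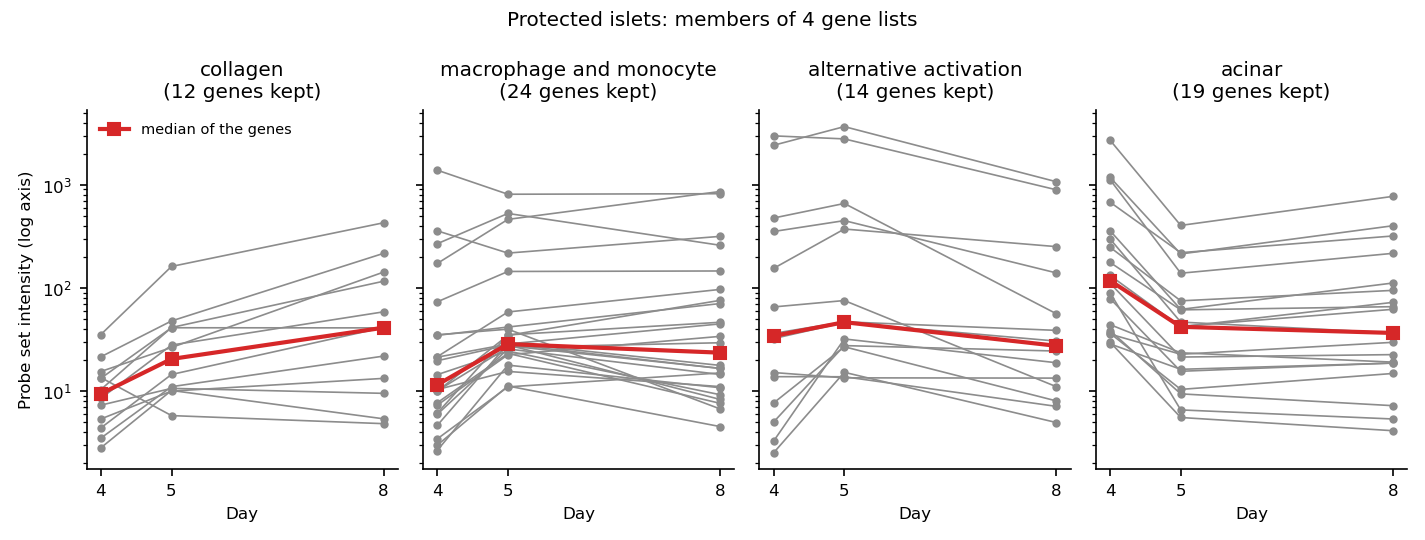
Probe set intensity (log axis) on days 4, 5 and 8 for each kept gene of the collagen, macrophage and monocyte, alternative activation and acinar lists (grey lines), with the median of the genes in red squares. Collagen genes are mostly highest on day 8, acinar genes highest on day 4, and alternative activation genes lower on day 8 than on day 5.

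Peaks on day 5 were led by dim genes of varied function. P4ha1, a prolyl hydroxylase needed for collagen folding, had 1.63, 37.8 and 4.93, a peak of 5.74-fold over its nearer neighbour. Rab4a, a GTPase of endosome recycling, had 3.40, 35.9 and 5.25, and Plet1, a surface protein of epithelial progenitors and some myeloid cells, had 2.05, 29.9 and 4.19. Gpd2, the mitochondrial glycerol phosphate dehydrogenase, had 1.64, 16.3 and 1.75. Each of these 4 genes exceeded 10 on day 5 only. Their other probe sets stayed below 10 throughout, with values from -1.38 to 1.04 between days 4 and 5. Bnip5, Iqch, Ap1b1 and Rnf7 completed the leading 8, with 12.3 to 20.4 on day 5 and at most 3.17 on the other days.

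Several inflammatory genes peaked as well. Cxcl2, which draws neutrophils, had 3.97, 23.6 and 6.42, and Lcn2, an iron-scavenging acute phase protein, had 8.85, 45.4 and 12.0. Icam1, the adhesion molecule that leukocytes bind, had 5.75, 16.4 and 4.37. S100a8, a calcium-binding protein of neutrophils and monocytes, fell short of the pattern at 21.3, 38.2 and 9.90, while the neutrophil genes S100a9, Ngp and Camp were below 10 throughout. Ifng itself had 15.9, 31.8 and 7.62. Its highest day was thus day 5, short of the 2-fold step from day 4. Its lowest was day 8, the day on which the probe sets representing Cxcl9 and Gbp2 were highest.

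Genes of protein folding and of the respiratory chain were often highest on day 5 on the deposited scale, as the kept genes often were. Hspa5, the main chaperone of the endoplasmic reticulum, had 11.4, 31.2 and 7.05, and Edem1, which sends misfolded proteins to degradation, had 8.95, 22.9 and 6.02. Between days 4 and 8 their other probe sets were slightly higher, by 0.12 to 0.30 for Hspa5 and 0.47 for Edem1. Of 15 kept genes of the unfolded protein response, 2 had the peak pattern and 6 were at least 2-fold lower on day 8 than on day 5, beside 10% and 13.3% of all genes. Of 22 kept respiratory chain genes, 12 were at least 2-fold higher on day 5 than on day 4 and 3 had the peak pattern, beside 40.2% and 10% of all genes. Ndufs1, a subunit of complex I, had 1.33, 11.2 and 1.81. The medians of these lists on day 5 were 0.70 and 1.07, beside 0.74 for all genes.

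Of the 169 dips on day 5, 3 were kept under all 5 settings. E2f5, a repressive transcription factor of the cell cycle, had 303, 16.0 and 254. On the other arrays this probe set was at 525 and 364 in the diabetogenic arm of days 4 and 8, and at 4.71 to 13.6 on the untreated array and both arrays of day 3. It was thus high on the arrays where the spiked controls were high and lower on day 5, where the dimmer controls were lower too, and its other 2 probe sets stayed below 10 on these days. Whether the dip shares a source with the controls was not tested. Clca3a2, a chloride channel regulator, had 50.2, 1.39 and 12.4, and Cep95, a centrosome protein, had 14.4, 1.17 and 12.0, and the other probe sets of both stayed below 10 and gave -0.23 to 0.21 on day 5 against day 4. Cd3e, a chain of the T cell receptor complex, had 23.7, 2.76 and 19.0, whereas Thy1, a T cell surface protein also found on stromal cells, had the rising pattern at 10.7, 26.9 and 40.1. Zap70, a kinase of that receptor, had 29.4, 12.7 and 31.2, but its other 2 probe sets gave 0.05 and 1.66 on day 5 against day 4.

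Of 11 kept beta cell genes, 6 stayed within 2-fold over the 3 days, as 38.3% of all genes did. The peak pattern held for 3, Isl1 at 4.56, 20.4 and 6.19, Ucn3 at 1.69, 12.9 and 4.98, and Neurod1 at 1.01, 10.1 and 1.06. The other probe set of Neurod1, which reached 14.4, gave 0.89 on day 5 and 0.51 on day 8 against day 4. That of Isl1 stayed below 10 and gave 0.51 and 0.08. Isl1 and Neurod1 are transcription factors of islet cells and Ucn3 is a peptide of mature beta cells, and the untreated array gave 56.8, 58.2 and 69.2 for Isl1, Ucn3 and Neurod1. Gcg, the glucagon gene of alpha cells, had 895, 1279 and 477, and Sst, the somatostatin gene of delta cells, had 10.1, 13.4 and 5.03. Both were at least 2-fold lower on day 8 than on day 5.

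The diabetogenic arm offers the same pair of days without day 5. Of the 512 rising genes, 259 (50.6%) were also at least 2-fold higher on day 8 than on day 4 there, where 28.5% of all genes were. Of the 223 falling genes, 57 (25.6%) were at least 2-fold lower there, against 8.76% of all. Bgn went from 13.7 to 436 in that arm, Col6a2 from 8.61 to 142 and Ccl5 from 13.0 to 297. These 3 genes were thus also higher on day 8 without the antibody. Others were not, since Col3a1 had 33.6 and 43.7, Fbxw9 had 8.16 and 3.94 and Gprasp1 had 58.7 and 45.6 on those days. The collagen list's median difference was 1.35 there, beside 2.32 in protected islets, and no test separates the arms. Cxcl9 and Gbp2 were already higher on day 4 in that arm, at 31.9 and 55.6, and reached 89.3 and 72.5 on day 8.

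The alternative activation and acinar genes stood at other levels in the arms. Ccl24 was 10.8 on day 4 and 1.26 on day 8 without the antibody, far under the 476 and 56.0 with it. Arg1 was 6.05 and 1.07 there. Cela1 was at 5.08 and 5.02 in the diabetogenic arm, close to the floor of the array, whereas Cela3b was at 94.7 and 151. The acinar list's median difference between the days was -0.25 in that arm against -1.56 with the antibody. The day 4 array of the diabetogenic arm was dimmer as a whole, with a 99th percentile of 25.6 against 67.0, and the part of this in each comparison was not tested.

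**Figure D5:**
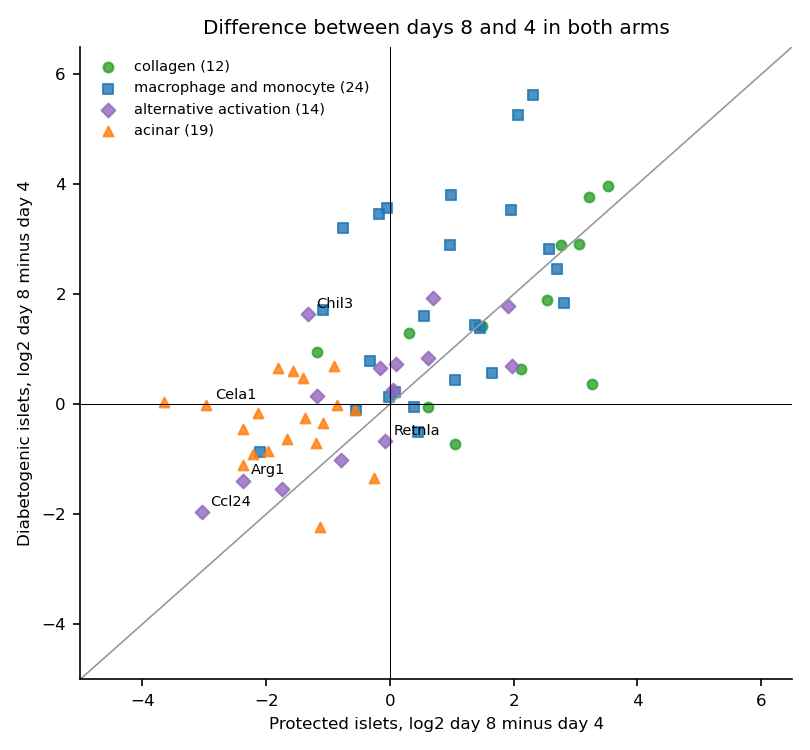
Log2 difference between days 8 and 4 in protected islets (horizontal axis) against the same difference in diabetogenic islets (vertical axis) for each kept gene of 4 lists, with the line of equal values in grey. Acinar genes lie left of 0, with a median of -1.56 on the horizontal and -0.25 on the vertical axis, most collagen genes lie in the upper right, and Chil3 is lower in the protected arm and higher in the diabetogenic arm.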

How the data were processed

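Intensities on a linear scale for 45101 Affymetrix probe sets were deposited by the authors as 1 table for the series. Their summary and scaling steps are not given in the sources, and no value on the 3 arrays lies under 0.91. Names came from the platform annotation, in which 34958 probe sets carry 1 symbol, 932 several and 9211 none. Only the first were used, so Ins1 was not analysed here. Each gene was represented by its probe set with the highest mean over the 8 arrays. Values were not rescaled. The pattern rules, lists and named genes were chosen with earlier results of these data known. Of 613 listed genes in 40 lists, 536 had a probe set and 290 were kept. Named genes are the up to 8 per pattern with the largest defining difference among those stable under 5 settings (the deposited scale, pseudocount 8, quantile normalization, median centring and spiked controls), up to 4 per list with the widest range, and a fixed set of islet and IFN-γ genes, with exceptions stated. Other genes named beside a list are its markers or were chosen after their values were seen. Alternatives also covered an intensity of 40, a filter on the other 5 arrays and the mean of a gene's probe sets. Pattern counting was tested on simulated data. With 1 array per day, the number of arrays limits precision and no p-value was computed. Promoter windows are from RefSeq (GRCm38.p6), and a further motif searched in them is not reported here. Python 3.11.15, numpy 2.4.6, pandas 2.3.3 and matplotlib 3.10.9 were used.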

Additional observations from a re-analysis of the deposited data

Results flagged for a closer look

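Both named genes that differed by at least 2-fold one way in the protected arm and the other way in the diabetogenic arm between days 4 and 8 are given here as values, and the difference between the arms was not tested, since each arm has 1 array per day. Chil3 had 352 and 140 in protected islets and 4.01 and 16.8 in diabetogenic islets, so that its log2 difference was 2.97 units lower in the protected arm (protected minus diabetogenic -2.97). Stat3, a transcription factor of cytokine signalling, had 4.02 and 21.0 in protected islets and 10.4 and 2.92 in diabetogenic islets, a protected minus diabetogenic value of 3.27. The other 3 probe sets of Stat3 gave -0.45 to 0.24 between days 4 and 8 in protected islets.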

How the results depend on the processing

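All pattern counts moved with some setting. With a pseudocount of 8 in place of 2 there were 283 rising, 85 falling, 105 peaking and 29 dipping genes, each of which also had that pattern with 2. Peaking genes numbered 238 after quantile normalization and 158 after median centring, which gave 414 dipping genes. Scaling on the spiked controls gave 51 rising, 4127 peaking and 6 dipping genes. A filter on the other 5 arrays gave 283, 52, 377 and 41, an intensity of at least 40 gave 148, 16, 43 and 26, and the mean of a gene's probe sets gave 285, 122, 281 and 65, in the order rising, falling, peaking and dipping. The T cell list's median on day 5 against day 4, -1.10 over 3 genes, turned to 0.32 with the spiked controls, 0.047 with the filter on the other arrays, 1.19 at an intensity of 40 and 0.21 with the mean of probe sets, and the cause was not tested. That of the Schwann and neural list, -1.05 over 2 genes, turned to 0.15 with the spiked controls, which also turned the B cell median from -0.67 to 0.62. Centring turned the NK cell median from 0.31 to -0.16 and that of other endocrine genes from 0.34 to -0.13. Hsp90b1 on day 8 against day 4, -1.29, turned to 0.45 with the mean of probe sets. Of the other values, 884 of single genes and 420 of list medians moved by less than 1.5-fold, and 109 and 85 moved further. No paired analysis was possible because each group has 1 array, and for the same reason no replicate could be left out. Signal limits the dim genes, since array medians were 3.52 to 3.61 and the limit for a gene was 10.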

Other observations

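Some genes not named above, from lists described there and from lists left out, also had a wide range. Tbx21, the transcription factor of IFN-γ-producing T cells and NK cells, had 7.82, 20.9 and 40.6 on days 4, 5 and 8. The NK cell genes Klrd1 (7.22, 8.57 and 19.4) and Nkg7 (4.31, 6.46 and 13.3) both had the rising pattern. Irf8, a transcription factor of monocytes and dendritic cells, had 5.61, 22.4 and 29.8, while Irf9, a partner of STAT proteins in the type I interferon response, had 18.6, 2.23 and 4.51. Tnfrsf4, a costimulatory receptor of activated T cells also called OX40, had 9.24, 33.7 and 44.4. Cd209a, a lectin of monocyte-derived dendritic cells, was at 5.35, 2.64 and 30.4, so that it was high on day 8 alone. Retn, the resistin gene, had 52.2, 2.78 and 9.21.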
